A study of Mus musculus with 13 samples.

Results

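The regions described here are OLIG2 called peaks of oligodendrocyte progenitor cells (OPCs) that lie on H3K4me3 in OPCs and have no OLIG2 called peak at the same place in newly formed oligodendrocytes (NFOs). They were chosen by the peak calls of 3 libraries: each is a listed OLIG2 peak of OPCs that shares no base with a listed OLIG2 peak of NFOs and at least 1 bp with a listed H3K4me3 peak of OPCs. The rule held for 631 of the 7384 OLIG2 peaks of OPCs, or 8.55%, and these are called promoter-mark peaks below. Since OLIG2 in OPCs, OLIG2 in NFOs and H3K4me3 in OPCs selected them, their values in those 3 lists are a description. The other marks, the sequence under the peaks and the genes were not used by the rule, although H3K4me3 mostly lies at transcription start sites (TSSs).

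OLIG2 is a basic helix-loop-helix transcription factor that binds E-boxes, short palindrome-like motifs, as a dimer with itself or with E proteins, and it is needed to specify OPCs and then for their differentiation. H3K4me3, the trimethylation of lysine 4 of histone H3, marks the start sites of active or poised genes, and H3K27me3, laid down by Polycomb repressive complex 2, marks silenced genes. Promoters that carry both marks are called bivalent and are common at developmental regulators in stem cells.

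The study followed the lineage from neural stem cells (NSCs) to OPCs and NFOs in untreated mouse cells by ChIP-Seq, in which the DNA held by an antibody is sequenced. NSCs were bought cells from the cortices of E14.5 CD-1 embryos, kept in culture with EGF and FGF, although their strain label reads C57BL/6. OPCs and NFOs were purified acutely from C57BL/6 brains (postnatal day 7) on plates coated with antibodies, first against PDGFRα and then against GalC, after microglia and endothelial cells had been removed. Each cell type has 1 library per target, so nothing here carries an error between animals or preparations, no difference between cell types was tested, and the exact Clopper-Pearson 95% intervals given with shares cover counting error only.

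The antibody labels of the 6 histone libraries name the other mark than their titles do. The titles were followed, because the names of the peaks inside the lists go with the titles. The lists hold 33292 H3K4me3 peaks for NSCs, 18284 for OPCs and 21736 for NFOs, with median widths of 553, 987 and 255.5 bp. NSC reads were called as single-end and the others as paired-end, so widths cannot be set on a common scale between cell types, and the same holds for fold enrichments. A peak absent from a list may lie below its calling threshold, and how deeply each library was sequenced is unknown. Among genes fixed as markers, an H3K4me3 peak lay within 2 kb of a TSS for 5 of 6 OPC markers both in OPCs and in NSCs, and for 1 of 9 oligodendrocyte markers in NFOs (Cnp, fold enrichment 3.31). Mbp, Mag, Mog and Mobp had none in NFOs, so the NFO list lacks most of the genes that define its cell type. In NSCs and in OPCs, 4 of the 9 oligodendrocyte markers had an H3K4me3 peak. Of the neuron markers 6 of 8 had one in OPCs and 5 of 8 in NFOs, while 6 of 8 had H3K27me3 in each of the 2. An H3K4me3 peak was listed in OPCs and NFOs for 6 and 3 of 6 NSC markers and 3 and 2 of 6 astrocyte markers. For microglia markers it was 1 and 0 of 6, and for endothelial markers 1 and 1 of 4. Of all genes, 43.3% had such a peak in the NSC list, 39.7% in the OPC list and 28.6% in the NFO list.

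The sequences below are shown because 2 features of the letters return in the results, the E-boxes that OLIG2 is known to bind and long runs of A or T. Capitals mark E-boxes of the OLIG2 type, searched on both strands. The first such E-box is the palindrome CAGCTG. Another palindrome, CATATG, was counted too. The remaining one, CAGATG on one strand, reads as its reverse complement CATCTG on the other. The first 4 are the peaks with the highest OLIG2 fold enrichment that hold an E-box in each class of H3K4me3 in NSCs and NFOs, the fifth is the same among peaks with H3K27me3 in OPCs, the sixth holds an E-box and no run of 10 A or T, and the last lies in Cspg4 and holds no E-box. All are given 5′ to 3′ on the plus strand of GRCm38 (mm10), each 230 bp long, and were read from the reference genome of NCBI RefSeq. Their summits lay in introns or between genes.
Nearest TSS of the lncRNA Gm13070, H3K4me3 in NSCs and NFOs (chr4:149854422-149854651): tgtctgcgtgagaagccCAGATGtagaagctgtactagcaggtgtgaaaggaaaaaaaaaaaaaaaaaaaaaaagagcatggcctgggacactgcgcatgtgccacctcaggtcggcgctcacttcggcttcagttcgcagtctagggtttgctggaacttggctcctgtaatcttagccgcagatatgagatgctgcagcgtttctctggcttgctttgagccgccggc
Intron of the lncRNA Gm52620, H3K4me3 in NSCs but not NFOs (chr3:153085005-153085234): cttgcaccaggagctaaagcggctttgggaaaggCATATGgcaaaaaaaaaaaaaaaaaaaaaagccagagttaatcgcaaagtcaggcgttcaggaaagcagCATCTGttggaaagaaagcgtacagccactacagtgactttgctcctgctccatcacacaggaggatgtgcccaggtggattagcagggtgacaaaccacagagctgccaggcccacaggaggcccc
Nearest TSS of the lncRNA Gm49466, H3K4me3 in NFOs but not NSCs (chr15:86921542-86921771): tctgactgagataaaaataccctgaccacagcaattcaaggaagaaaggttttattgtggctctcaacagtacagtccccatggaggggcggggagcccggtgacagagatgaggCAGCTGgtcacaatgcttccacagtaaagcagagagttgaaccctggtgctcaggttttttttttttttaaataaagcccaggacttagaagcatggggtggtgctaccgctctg
Nearest TSS of the lncRNA Grip1os1, H3K4me3 in neither (chr10:119878687-119878916): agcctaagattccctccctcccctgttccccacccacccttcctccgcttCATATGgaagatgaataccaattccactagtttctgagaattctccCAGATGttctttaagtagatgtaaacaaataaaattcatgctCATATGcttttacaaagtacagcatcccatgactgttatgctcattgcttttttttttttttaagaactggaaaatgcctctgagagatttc
Intron of Nr4a2, H3K27me3 in OPCs (chr2:57116582-57116811): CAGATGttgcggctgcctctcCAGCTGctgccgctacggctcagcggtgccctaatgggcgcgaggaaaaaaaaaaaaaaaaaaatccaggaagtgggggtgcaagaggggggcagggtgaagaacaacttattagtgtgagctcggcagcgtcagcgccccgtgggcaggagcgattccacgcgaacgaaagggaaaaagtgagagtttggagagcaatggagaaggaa
Nearest TSS of the lncRNA Gm52180, no run of 10 A or T (chr15:82275755-82275984): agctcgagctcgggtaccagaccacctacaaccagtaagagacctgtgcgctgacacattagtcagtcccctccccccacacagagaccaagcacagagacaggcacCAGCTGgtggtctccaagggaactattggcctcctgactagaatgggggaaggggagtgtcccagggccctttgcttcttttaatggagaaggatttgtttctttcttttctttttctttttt
Intron of Cspg4, no E-box (chr9:56869506-56869735): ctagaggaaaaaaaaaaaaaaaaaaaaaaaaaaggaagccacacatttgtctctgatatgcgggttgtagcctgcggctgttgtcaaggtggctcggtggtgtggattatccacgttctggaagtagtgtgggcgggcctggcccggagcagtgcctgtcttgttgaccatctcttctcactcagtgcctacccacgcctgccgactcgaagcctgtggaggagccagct

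An unbroken run of at least 15 A or at least 15 T stood in 4 of the 7 sequences, those near Gm13070, Gm52620, Nr4a2 and Cspg4, and was common over all members. In the 200 bp around the peak centre, 327 of 631 promoter-mark peaks (51.8%, 47.8 to 55.8) held such a run. In windows of the same length placed 500 bp to either side of the same peaks the shares were 1.9% and 2.69%, among 32851 RefSeq promoters 1.36%, and at OPC H3K4me3 peaks without an OLIG2 peak 1.34%. The runs were not a property of these 631 peaks alone: the share was 49.0% over all OLIG2 peaks of OPCs, 46.3% over OPC-only peaks without OPC H3K4me3, 67.4% over peaks shared with NFOs that carry OPC H3K4me3, and 44.8% over the OLIG2 peaks of NFOs. Within the whole listed interval, 347 members (55.0%) held a run against 52.8% of all OLIG2 peaks of OPCs, at a median of 56.5 bp from the peak centre, and the longest ran over 47 bases.

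Among the members the share with a run was larger at a higher OLIG2 fold enrichment. Runs stood in 47.6% (42.3 to 52.9) of the windows of members with a fold enrichment up to 10, in 54.3% (47.7 to 60.8) from 10 to 20 and in 70.8% (55.9 to 83.0) above 20. Of the 15 peaks with the highest fold enrichment, 7 held one. The part of the runs in the OLIG2 calls was not tested.

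**Figure D1:**
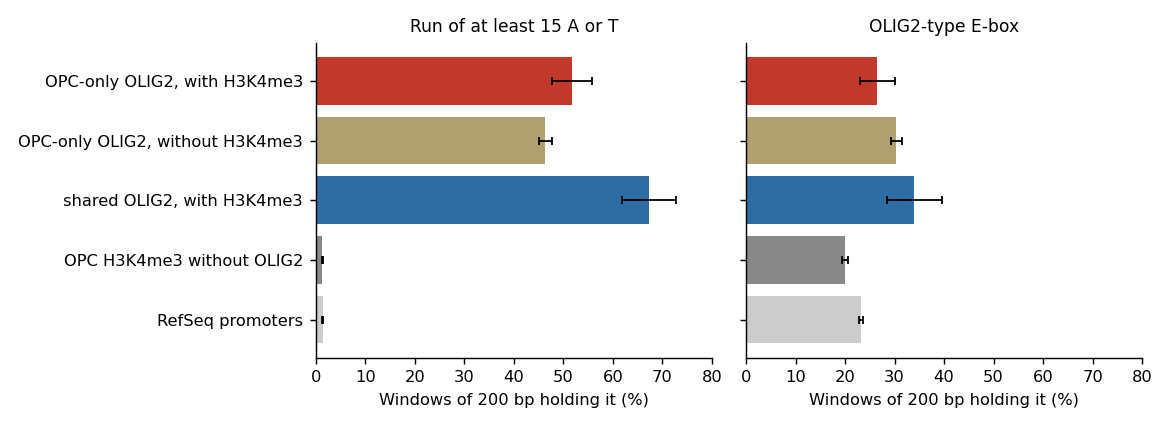
Share of 200 bp windows (%, horizontal axis) that hold a run of at least 15 A or T (left) or an OLIG2-type E-box (right), with bars for 5 sets of regions and exact 95% intervals as error bars. Runs stand in 51.8% of the promoter-mark peaks and 1.36% of RefSeq promoters, while E-boxes stand in 26.5% and 23.3%.

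E-boxes of the OLIG2 type stood in 186 of the 631 promoter-mark peaks (29.5%, 25.9 to 33.2), against 34.3% of all OLIG2 peaks of OPCs. CAGCTG was found in 90 members, CAGATG or CATCTG in 83 and CATATG in 33, and 33 members held more than 1 E-box, at most 3. Where present, the E-box lay at a median of 38.0 bp from the peak centre, and in 111 of 184 peaks (60.3%) of full width within 50 bp of it, against 55.9% over all OLIG2 peaks. In windows of 200 bp the share was 26.5% (23.1 to 30.1) in the members, 30.3% in the OPC-only peaks without OPC H3K4me3, 33.9% in the shared peaks with it, 19.9% at OPC H3K4me3 peaks without OLIG2 and 23.3% at RefSeq promoters. A match says only that these letters are there.

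Motifs of general promoter factors were also searched on both strands of those windows. The ETS core CCGGAA was found in 10.1% of the members, 2.76% of all OLIG2 peaks and 10.7% of RefSeq promoters. The SP motif GGGCGG was found in 16.5%, 4.71% and 31.0% of the same sets, and the CRE half-site TGACGT in 3.49%, 1.63% and 5.85%. Smaller differences were seen for CCAAT in 21.4%, 22.9% and 29.3%, the NRF1 core GCATGC in 5.55%, 5.47% and 5.64%, the SOX motif ACAAAG in 13.9%, 16.8% and 13.3% and the YY1 motif AAGATGG in 3.49%, 4.25% and 3.45%. Median GC content was 48.0% in the members, 43.0% in all OLIG2 peaks, 53.0% in RefSeq promoters and 59.0% at OPC H3K4me3 peaks without OLIG2.

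Most promoter-mark peaks lay at start sites. The summit of 428 of 631 (67.8%, 64.0 to 71.5) was within 1 kb of the TSS of an annotated transcript (72.5% without the peaks that hold a run), against 14.7% of all OLIG2 peaks of OPCs, 6.9% of the OPC-only peaks without OPC H3K4me3 and 68.1% of the shared peaks with it. A further 88 (13.9%) lay between 1 and 3 kb from a TSS, 57 (9.03%) elsewhere in a gene body, 2 within 300 bp downstream of a gene and 56 (8.87%) in distal intergenic DNA. Peaks fell on both sides of the TSS in like numbers, 216 upstream and 212 downstream within 1 kb, and 193 (30.6%) within 200 bp. The median distance was 502 bp, against 9610 bp over all OLIG2 peaks. The nearest TSS was that of a long non-coding RNA (lncRNA) for 160 members (25.4%), against 39.8% of all OLIG2 peaks of OPCs and 18.5% of the shared peaks with OPC H3K4me3. Start sites on both strands lay within 1 kb of 97 members (15.4%), against 2.22% and 16.4% of the same sets. By annotation, 16 summits lay in coding exons, 139 in untranslated or non-coding exons, 298 in introns and 178 outside genes.

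**Figure D2:**
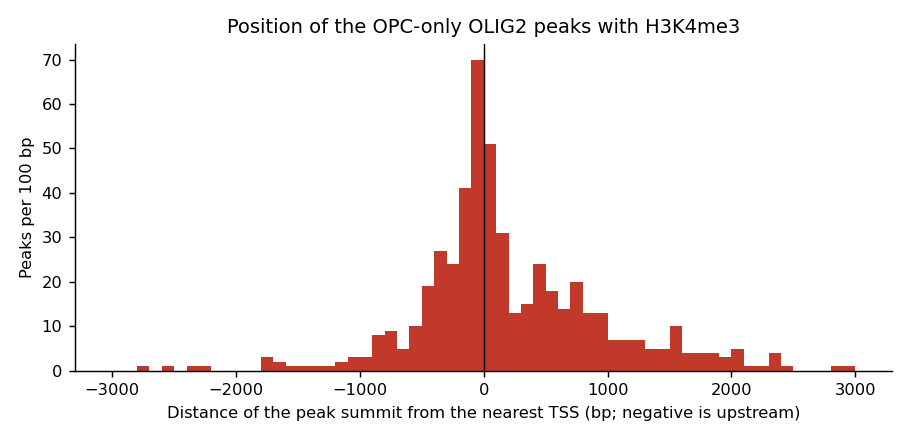
Number of promoter-mark peaks per 100 bp (vertical axis) by the distance of the peak summit from the nearest TSS in bp (horizontal axis, negative is upstream), for peaks within 3 kb. The counts are highest in the bins next to the TSS, and 193 of 631 peaks lie within 200 bp of it.

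OLIG2 fold enrichment over the control was between 2.27 and 45.8 in the members, with a median of 9.38 (8.7 without the peaks that hold a run) and quartiles of 6.8 and 13.3. The median was 8.03 over all OLIG2 peaks of OPCs, 7.71 in the OPC-only peaks without OPC H3K4me3 and 13.7 in the shared peaks with it. A fold enrichment above 20 was listed for 48 members (7.61%) and one of at most 5 for 42 (6.66%), and 589 (93.3%) passed the filter stated in the methods, which kept an FDR under 0.05 with a fold enrichment over 5. All but 6 members were 230 bp wide as listed. Those 6 were between 58 and 98 bp wide, lay within 1 kb of a TSS and had fold enrichments from 28.6 to 45.8.

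The highest was that of Eif3k, which encodes a subunit of the translation initiation factor eIF3. Its peak (chr7:28981803-28981900, -8 bp from the TSS, where a minus sign means upstream) had an OLIG2 fold enrichment of 45.8, and the H3K4me3 peaks over it had 12.7, 13.7 and 9.95 in NSCs, OPCs and NFOs. It held neither an E-box nor a run, its longest being 3 bases. The next, with an OLIG2 fold enrichment of 34.3, lay -49469 bp from the nearest TSS, that of the lncRNA Gm13070, and its sequence is the first printed above. Below it stood a peak in an intron of the kinase gene Mast4 with an OLIG2 fold enrichment of 32.9, at 466 bp from the TSS, and with H3K4me3 fold enrichments of 10.9, 17.6 and 16.2 in NSCs, OPCs and NFOs.

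The promoters of 2 genes for transport within cells came next. Gdi2, a regulator of Rab GTPases in vesicle transport, had an OLIG2 fold enrichment of 31.8 at -118 bp, and Kpna2, an importin that carries proteins into the nucleus, had one of 31.6 at -121 bp. Both held a run, of 21 and 15 bases. The OLIG2 peaks of 4933434E20Rik (31.0, at 2 bp) and 1110008L16Rik (30.1, at 94 bp) had H3K4me3 in all 3 cell types. Tfap4, which encodes another basic helix-loop-helix factor, had an OLIG2 fold enrichment of 28.6 at -305 bp, and those of the H3K4me3 peaks there were 12, 10.3 and 17.2 in NSCs, OPCs and NFOs. Lrrn1, a leucine-rich repeat membrane protein, stood apart among the 15, since its peak of 30.9 at -243 bp had H3K4me3 in NSCs (9.08) and OPCs (9.62) and none in NFOs. The others among the 15 were nearest to Gm44734 (OLIG2 fold enrichment 31.1), Gm41131 (29.8), 4930509H03Rik (29.6), Vwa3b (29.0), Gm52180 (29.0) and H2-M10.1 (28.8, at 11378 bp).

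The rule drew a line between close neighbours. The member with the least H3K4me3 under it was at Ephb3, 12 bp of overlap, and the nearest peak outside was at Tsku, with a gap of 5 bp and an OLIG2 fold enrichment of 25.1. Toward NFOs, the member closest to an NFO OLIG2 peak was at Tnfaip6, with a gap of 82 bp, and peaks outside overlapped one by as little as 19 bp, at Map3k8, and 39 bp, at Lsamp. An NFO OLIG2 peak lay within 500 bp of 14 members (2.22%), within 1 kb of 25 (3.96%) and within 10 kb of 156 (24.7%), the median gap being 30300 bp. In 33 cases (5.23%) the same OPC H3K4me3 peak held an NFO OLIG2 peak elsewhere.

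The members stood on 622 OPC H3K4me3 peaks, 9 of which held more than 1. These had a median fold enrichment of 8.06 and a median width of 1490 bp, against 5.65 and 967 bp for the 17383 OPC H3K4me3 peaks without an OLIG2 peak. H3K4me3 covered 342 members (54.2%) entirely. Many summits were near an end of the mark: 211 summits (33.4%) lay in or beyond the outer 10% at the ends of the H3K4me3 peak and 95 (15.1%) in its middle 20%. The median distance from the nearest end was 147 bp, against 155 bp over all OLIG2 peaks of OPCs on OPC H3K4me3. In the shared peaks with OPC H3K4me3 it was 186 bp, so nearness to an end was not particular to the members.

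H3K4me3 at the same place in the other cell types was listed for most members. A listed H3K4me3 peak of NSCs overlapped 584 of 631 members (92.6%, 90.2 to 94.5), against 21.6% of all OLIG2 peaks of OPCs, and one of NFOs overlapped 529 (83.8%, 80.7 to 86.6), against 13.6%. Without the members that hold a run, the NFO share was 74.6%. The OPC-only peaks without OPC H3K4me3 had 10.3% and 2.6%. The shared peaks with OPC H3K4me3 had 95.3% (92.2 to 97.4) in NSCs and 95% (91.8 to 97.2) in NFOs, so the interval for NFOs lay above that of the members, and the intervals for NSCs overlapped. So for most members, which by the rule lack an OLIG2 call in NFOs, H3K4me3 was still listed there in NFOs. A missing NFO call was the usual state of these lists, since 1059 of all 7384 OLIG2 peaks of OPCs (14.3%) overlapped an NFO OLIG2 peak. Of the 929 OLIG2 peaks of OPCs with OPC H3K4me3, 298 did.

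**Figure D3:**
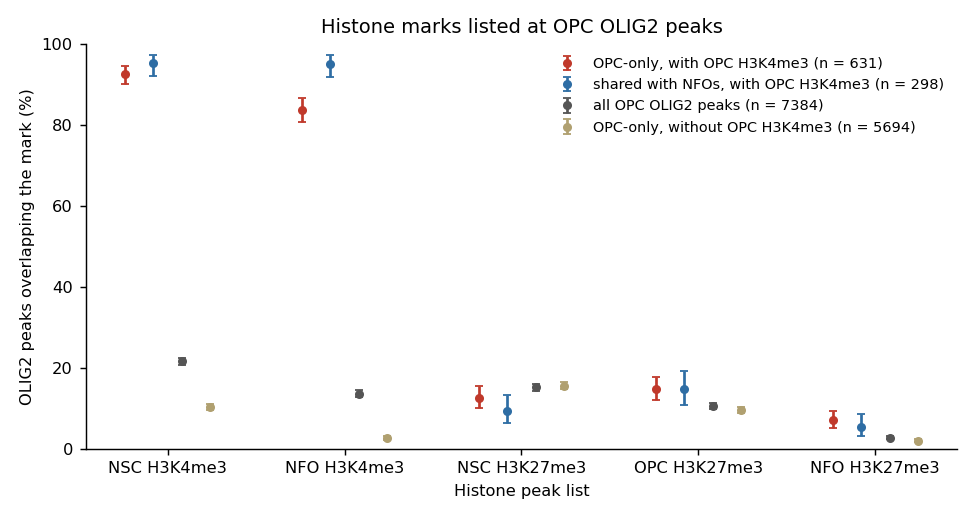
Share of OPC OLIG2 peaks (%, vertical axis) that overlap a listed histone peak of each kind (horizontal axis), for the promoter-mark peaks and 3 other sets, with points for the share and bars for exact 95% intervals. The promoter-mark peaks stand at 92.6% for NSC H3K4me3 and 83.8% for NFO H3K4me3, and at 14.7% or below for the 3 H3K27me3 lists.

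The H3K4me3 peaks over the members stood high in their own lists, by the rank of their fold enrichment. The median percentile was 89.9 for the NSC list, 82.1 for that of OPCs and 89.1 for that of NFOs, and 292 of 584, 235 of 631 and 246 of 529 were in the top 10% of the list. High values were not particular to the members. The H3K4me3 peaks over them had median fold enrichments of 10.1, 8.07 and 9.24 in NSCs, OPCs and NFOs. Over the shared peaks with OPC H3K4me3 these were 11.2, 9.4 and 11.0, and over all OLIG2 peaks of OPCs with the mark 7.64, 8.46 and 8.1. The widths of the H3K4me3 peaks over the members differed between the lists. Counting histone peaks of at least 500 bp alone, NSC H3K4me3 lay at 84.2% of the members and NFO H3K4me3 at 39.8%, against 14.1% and 6.3% of all OLIG2 peaks. Since widths are not on 1 scale between the lists, each share is to be read against its own background and not against the other. Long runs of A or T stood in 51.4% of NSC H3K4me3 peaks under 500 bp and in 1.87% of wider ones, and in 3.22% and 4.17% of those of NFOs. Their part in the overlaps was not tested.

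OPC H3K4me3 peaks were also compared within classes of width. Under 500 bp, 84.4% of those that held a member overlapped NFO H3K4me3, against 30.4% of those without an OLIG2 peak. Between 500 bp and 1 kb the shares were 72.3% and 43.4%, between 1 and 2 kb 92.8% and 69.0%, and above 2 kb 96.9% and 88.7%. The excess over peaks without OLIG2 was present in each class of width and smallest in the widest. For NSC H3K4me3 the same classes gave 71.6% against 49.0%, 90.4% against 86.0%, 99.2% against 98.0% and 99.5% against 99.2%.

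By the presence of H3K4me3 in NSCs and NFOs, the members fell into 4 classes. Both cell types had it at 501 members (79.4%), NSCs and not NFOs at 83 (13.2%), NFOs and not NSCs at 28 (4.44%) and neither at 19 (3.01%). Median OLIG2 fold enrichment was 9.58, 9.48, 9.14 and 7.58 in the 4 classes. H3K4me3 of OPCs, which the rule used to choose the members and the classes did not use, had median fold enrichments of 9.03, 5.78, 5.54 and 3.73. Its median widths were 1590, 1370, 274 and 404 bp. The same classes are not given here for other H3K4me3 peaks, so these values describe the members only. In its own list the OPC H3K4me3 peak stood at a median percentile of 88.3, 50.8, 46.7 and 11.7. Among the members, the mark of OPCs thus had its highest median where both other cell types had it and its lowest where neither did.

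**Figure D4:**
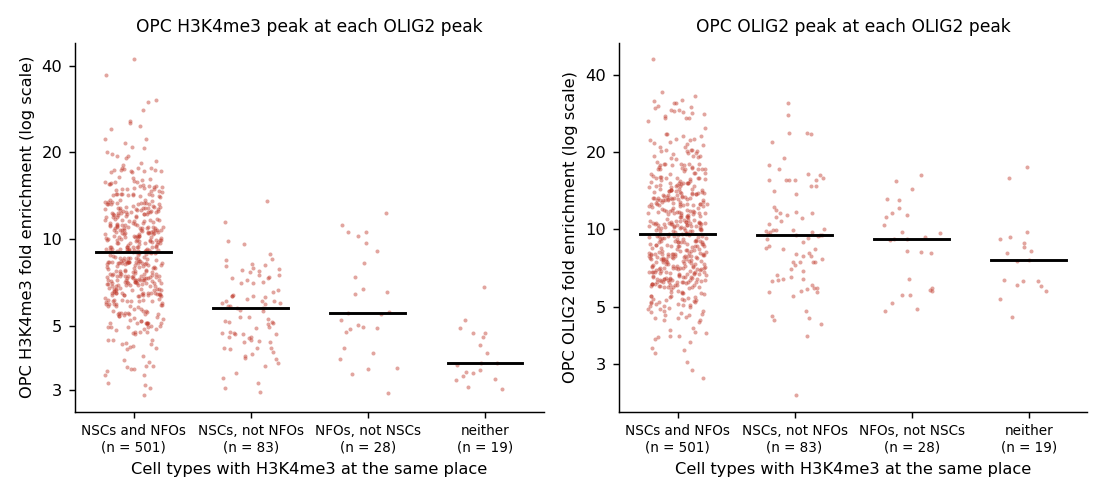
Fold enrichment on a log scale (vertical axes) of the OPC H3K4me3 peak (left) and of the OPC OLIG2 peak (right) at each promoter-mark peak, by the cell types with H3K4me3 at the same place (horizontal axis). Points are peaks and lines are medians, which run from 9.03 to 3.73 for H3K4me3 and from 9.58 to 7.58 for OLIG2, with wide overlap between classes.

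Position and letters differed between these classes as well. A TSS lay within 1 kb of 72.3%, 65.1%, 28.6% and 21.1% of them in the same order, and the nearest TSS was that of a lncRNA for 23.2%, 22.9%, 64.3% and 36.8%. Over all OLIG2 peaks of OPCs these shares were 14.7% and 39.8%. E-boxes stood in 24.8% (21 to 28.8) of the members with H3K4me3 in both and in 50.6% (39.4 to 61.8) of those with it in NSCs but not in NFOs. Runs went the other way, with 56.5% (52.0 to 60.9) and 26.5% (17.4 to 37.3). The last 2 classes are small, and their intervals for E-boxes, 21.5 to 59.4% and 24.4 to 71.1%, both overlap that of the first class.

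All members without NFO H3K4me3 were also set against all with it. Most of these peaks are those of the first 2 classes above, so the contrast is not a separate result. Of the 102 without, 51 held an E-box (exact interval 39.9 to 60.1%), and of the 529 with it 135 did (25.5%, 21.9 to 29.5). Within 1 kb of a TSS the shares were 53.4% (39.9 to 66.7) and 21.9% (17.8 to 26.5), and farther away 45.5% (30.4 to 61.2) and 34.0% (26.6 to 41.9), so that the intervals overlapped farther from start sites. The shared peaks with OPC H3K4me3 had the same order, 7 of 15 (46.7%, 21.3 to 73.4) without NFO H3K4me3 and 104 of 283 (36.7%, 31.1 to 42.7) with it, with overlapping intervals. Over all OLIG2 peaks of OPCs that are not members the order was the reverse, 34.5% (33.3 to 35.7) without NFO H3K4me3 and 38.6% (34.2 to 43.2) with it, and these intervals overlapped. Some of the 102 were close to the mark: an NFO H3K4me3 peak lay within 1 kb of 33 (32.4%), and for 39 (38.2%) the OPC H3K4me3 peak they stood on overlapped one. Of the 47 members without NSC H3K4me3, 2 had a peak within 1 kb.

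Among members with H3K4me3 in NSCs and not in NFOs, the highest after Lrrn1 was at Ptpn21, a protein tyrosine phosphatase, with an OLIG2 fold enrichment of 27.9 at -2285 bp from the TSS and H3K27me3 besides H3K4me3 in NSCs and OPCs. Rhob, a small GTPase that is quickly induced by growth factors and stress, had an OLIG2 fold enrichment of 23.7 at 3148 bp and H3K4me3 fold enrichments of 8.66 in NSCs and 7.1 in OPCs. The peaks at Ptpn21 and Rhob held runs of 20 and 30 bases. Amd1, the decarboxylase that feeds polyamine synthesis, had an OLIG2 fold enrichment of 21.9 at -177 bp, with H3K4me3 of 10.1 and 9.89 in the same order, and its peak held an E-box and no run. The other members of the 8 highest were at Gm52620 (OLIG2 fold enrichment 23.8), Gm38399 (23.4), Gm8251 (18.9) and Ftsj1 (17.8), which lay 14401 bp from the nearest TSS.

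H3K4me3 in NFOs and not in NSCs was found at 28 members, and 18 of them were nearest to a lncRNA. The highest lay in Cspg4, which encodes the NG2 proteoglycan of OPCs, with an OLIG2 fold enrichment of 16.3 in an intron 4588 bp from the TSS and H3K4me3 fold enrichments of 4.92 in OPCs and 3.62 in NFOs. Ctnnd2, the delta-catenin of neuronal junctions, had an OLIG2 fold enrichment of 12.1 at 1652 bp, with H3K4me3 of 6.47 in OPCs and 7.66 in NFOs. For Minar2 the OLIG2 value was 13 and those of H3K4me3 were 7.41 and 7.51, and the rest of the 8 highest were nearest to Zdhhc25 (15.4), Gm42043 (14.3), Gm49466 (13.1), Gm34061 (11.6) and Gm52339 (11.4).

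For 19 members H3K4me3 was listed in OPCs and in neither of the others. The highest was the peak with 3 E-boxes printed above, with an OLIG2 fold enrichment of 17.5, whose nearest TSS was that of Grip1os1 at -26412 bp and whose H3K4me3 fold enrichment in OPCs was 4.6. It lay in an intron of Grip1, a scaffold of glutamate receptors. A peak nearest to Gm13497 had an OLIG2 fold enrichment of 15.9. Rapgef5, an exchange factor for Rap GTPases, had an OLIG2 fold enrichment of 9.74 at 491 bp with 6.85 for H3K4me3, and Clasp2, which binds growing microtubule ends, had 8.88 at -301 bp with 4.31. The remaining ones among the 8 highest were at E2f7 (OLIG2 fold enrichment 9.32), Fsip1 (9.15), Gm34878 (8.5) and Gm36834 (8.24).

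H3K27me3 lay under a minority of the members. It was listed for 79 in NSCs (12.5%, 10.0 to 15.4, against 15.2% of all OLIG2 peaks of OPCs), for 93 in OPCs (14.7%, 12.1 to 17.7, against 10.5%) and for 45 in NFOs (7.13%, 5.25 to 9.43, against 2.65%). In NSCs the share was close to that over all OLIG2 peaks, and in OPCs and NFOs it was higher in the lists as deposited, as it was in the shared peaks with OPC H3K4me3 (14.8% and 5.37%). OPC H3K4me3 peaks that held a member overlapped H3K27me3 in 14.3%, 16.6% and 8.36% of cases in NSCs, OPCs and NFOs. Those without an OLIG2 peak did so in 8.53%, 11.7% and 7.31%, so in NFOs the 2 sets were close. Counting H3K27me3 peaks of at least 500 bp alone, the members' 3 shares were 7.45%, 9.83% and 5.39%, against 7.33%, 5.0% and 1.96% of all OLIG2 peaks. With fold enrichments above 10 for OLIG2 and 5 for the marks the members' shares were 3.55%, 4.26% and 1.06%, with the filter of the methods the shares were 8.32% in NSCs and 12% in OPCs, and without the members that hold a run it was 9.86% in NSCs. The shares over all OLIG2 peaks were not computed under those 3 settings. In NSCs, 64.4% of the H3K27me3 peaks under 500 bp held a run of A or T and 3.27% of the wider ones did.

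The marks of the 3 cell types were then put side by side at each member. H3K4me3 without H3K27me3 in all 3 was the largest group, with 399 members. A further 73 had H3K4me3 alone in NSCs and OPCs and neither mark in NFOs. Both marks stood in all 3 cell types at 26 members, both in NSCs with H3K4me3 alone in OPCs and NFOs at 24, and both in OPCs with H3K4me3 alone before and after at 27. Counts of these groups over all OLIG2 peaks of OPCs are not given here, so they describe the members only. H3K27me3 was listed at the same places in several cell types: among the 93 members with it in OPCs, 47 (50.5%) had it in NSCs and 43 (46.2%) in NFOs, against 5.95% and 0.372% of the 538 without it in OPCs. The members with both marks in OPCs lay within 1 kb of a TSS in 46.2% (35.8 to 56.9) of cases against 71.6% (67.5 to 75.3) of the others, and on narrower H3K4me3 peaks, with a median of 864 against 1590 bp.

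Of the members with both marks in OPCs, that nearest to Mir670hg, a lncRNA that hosts a miRNA, had the highest OLIG2 fold enrichment, 28.4, and held a run of 45 bases. Nr4a2 is a nuclear receptor needed for dopaminergic neurons and also an immediate early gene. Its peak had an OLIG2 fold enrichment of 27 in an intron at -1659 bp from the nearest TSS. H3K4me3 there was 13.9, 8.29 and 14.6 in NSCs, OPCs and NFOs, and H3K27me3 was 2.97 in OPCs. The OPC H3K27me3 at Mir670hg (2.49) and at Nr4a2 was below the fold enrichment of 3.5 required by the methods. At the members named next it was above 3.5, from 4.01 to 8.84. High values were also listed for Ptpn21, already described, and for lncRNAs, Gm30074 (OLIG2 fold enrichment 23.5), Gm52870 (19.0), Gm42280 (16.8) and Gm52699 (16.4).

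With a member in the body or within 5 kb upstream of a gene taken as its peak, 832 of 43193 annotated genes (1.93%) had one, 580 protein-coding genes and 252 lncRNAs, and 53 members fell to no gene. An NFO OLIG2 peak lay elsewhere in 328 of the 832 genes (39.4%), and 9007 of the 43193 annotated genes had one. Tcf4 and Gm20388 held 3 members each, and 18 genes held 2, among them Aff1, Foxp1, Marcks, Nr3c1 and Zfhx3. These last were singled out after their values had been seen.

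Of 44 regulators of the oligodendrocyte lineage, 6 held a promoter-mark peak. Etv4, an ETS factor downstream of FGF signalling, had the highest OLIG2 fold enrichment, 18.3 in an intron at 589 bp, with H3K4me3 of 9.06, 5.65 and 6.66 over it in NSCs, OPCs and NFOs. Sox8, a SoxE factor that works alongside Sox10 in oligodendrocytes, had an OLIG2 fold enrichment of 14.8 in an intron at 1573 bp, with H3K4me3 of 13.2, 9.84 and 11.3. Olig2 itself had a peak with an OLIG2 fold enrichment of 12.6 in an untranslated or non-coding exon at 2940 bp (chr16:91228282-91228511), with H3K4me3 of 10.0, 8.69 and 4.9. No E-box was found in these 3 peaks, and runs stood in those of Etv4 (21 bases) and Sox8 (31 bases).

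Tcf4, an E protein that can pair with OLIG2, held 3 peaks on 2 H3K4me3 peaks, with OLIG2 fold enrichments of 8.69, 8.07 and 7.08. H3K4me3 was listed over each in NSCs, OPCs and NFOs, with 14.5, 7.56 and 5.7 over the first 2 and 8.2, 8.4 and 5.45 over the third. Zeb2, a repressor needed for myelination, had an OLIG2 fold enrichment of 5.48 and Nfib, a gliogenic factor, one of 4.79, the latter below the fold enrichment of 5 that the methods require. The 6 genes shared H3K4me3 in all 3 cell types and had no H3K27me3 at these places.

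Genes that mark OPCs held members in 5 of 29 cases, and here the H3K4me3 under the peak varied more. Cspg4, given above, and Dscaml1, a cell adhesion molecule, lacked it at the peak in NSCs, the latter with an OLIG2 fold enrichment of 5.81 and H3K4me3 of 12.3 in OPCs and 11.5 in NFOs. Ptprz1, a receptor tyrosine phosphatase of OPCs, had an OLIG2 fold enrichment of 8.06 in an intron over H3K4me3 of 3.35 that was listed in OPCs and not in NSCs or NFOs, and that is below the fold enrichment of 3.5 required by the methods. That peak lay at -36114 bp from the nearest TSS of the gene. Within 2 kb of a TSS, Cspg4 had H3K4me3 of 4.57 in NSCs and 5.78 in OPCs and none in NFOs, and Ptprz1 had 11, 8.61 and 10.5 in NSCs, OPCs and NFOs. Vcan, the matrix proteoglycan versican, had an OLIG2 fold enrichment of 7.88 at 2270 bp, with H3K4me3 of 9.98 in NSCs and 7.35 in OPCs and none in NFOs. Fgfr2, a receptor for fibroblast growth factors, was counted for a peak at -514 bp from the TSS of an annotated transcript of the gene. Its OLIG2 fold enrichment was 7.85, with H3K4me3 of 15.8, 22.2 and 17.5 in the 3 cell types. The TSS nearest to that peak was that of Ctbp2, so the OLIG2 peak and H3K4me3 there cannot be assigned to Fgfr2 rather than to Ctbp2. The same holds for the peaks at Vcan and Dscaml1, whose nearest TSSs were those of Gm4117 and 4833428L15Rik. Of these 5 peaks, 1 held an E-box, that in Dscaml1. Runs of A or T stood in those of Cspg4 (26 bases), Ptprz1 (28), Dscaml1 (23) and Fgfr2 (15), and not in that of Vcan.

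Of 31 myelin genes, 2 held a member. Enpp2, which encodes autotaxin, had an OLIG2 fold enrichment of 15.7 at 744 bp, with H3K4me3 of 4.93, 7.08 and 6.17 in NSCs, OPCs and NFOs. The TSS nearest to this peak was that of Gm26684, so the peak and the mark cannot be assigned to Enpp2 rather than to Gm26684. Qk, an RNA-binding protein that myelination depends on, had an OLIG2 fold enrichment of 8.89 at -2329 bp, with H3K4me3 of 4.87, 3.55 and 5.32. Of 28 Wnt pathway genes, 2 held one. Rnf43, a ubiquitin ligase that removes Wnt receptors, had an OLIG2 fold enrichment of 8.1 at 2800 bp over H3K27me3 alone in NSCs (5.35) and over H3K4me3 alone in OPCs (6.59) and NFOs (6.28). Tcf7, a DNA-binding effector of Wnt signalling, had one of 5.6 at 169 bp, with H3K4me3 in all 3 and H3K27me3 in NSCs (3.99) and OPCs (6.02).

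Immediate early genes, which cells switch on within minutes of a stimulus, held members in 4 of 18 cases. Jun, the AP-1 subunit, had an OLIG2 fold enrichment of 15.3 at -1785 bp with a run of 32 bases. The H3K4me3 over that peak was 9.6, 7.86 and 4.3 in NSCs, OPCs and NFOs. Jund, another AP-1 subunit, had one of 8.39 at 1339 bp, with H3K4me3 of 12.1, 10.8 and 20.0, and Btg2, an antiproliferative factor, had one of 6.22 at 1827 bp, with H3K4me3 of 11.1, 9.44 and 5.54. Nr4a2 was the fourth. None of the 18 held an OLIG2 peak of OPCs outside these 4, and 3 held one of NFOs. The nearest TSS was that of Junos for the peak at Jun and that of Gm11175 for the peak at Jund, so these peaks cannot be assigned to Jun or Jund alone.

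The MYC network held members in 3 of 12 genes. Mxi1 and Mnt, repressors that compete with MYC for MAX, had OLIG2 fold enrichments of 15.8 at 775 bp and 8.94 at 196 bp, and Myc had one of 7.05 at -1773 bp with a CAGCTG. H3K4me3 was listed in all 3 cell types over each, and it was 15.2, 10.5 and 20.3 over the peak of Mxi1. The same was so for the 3 of 32 splicing factors with a member, Srsf1 (10.8), Hnrnpc (10.6) and Hnrnpk (6.03), and for the 2 of 52 chromatin regulators, the ATPase gene Smarca2 (6.8) and the H3K4 methyltransferase gene Setd1b (6.79). The nearest TSS was that of Gm37947 for the peak at Myc and that of AI480526 for the peak at Setd1b, so these peaks cannot be assigned to Myc or Setd1b alone. No gene of the neural stem cell list (22 genes), astrocyte list (10), neuron list (16), microglia list (10), endothelial list (6) or cell cycle list (34) held a member. The gene lists are small, the share over all genes was 1.93%, and no enrichment was tested.

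**Figure D5:**
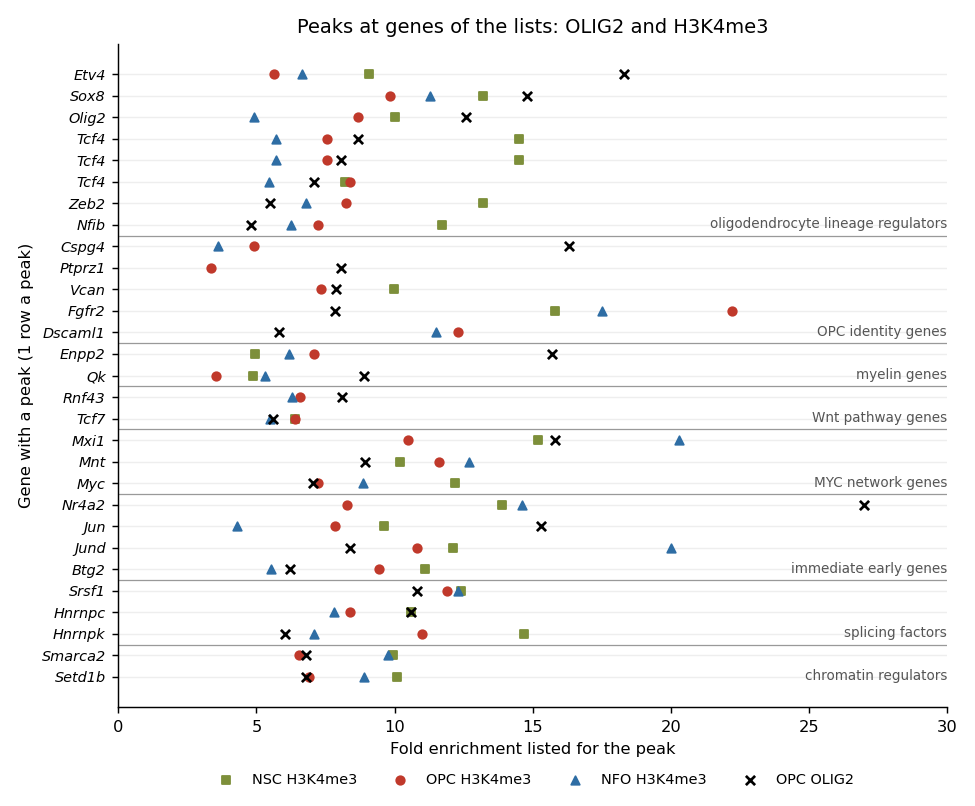
Fold enrichment listed for the peak (horizontal axis) at each promoter-mark peak in a gene of the lists (vertical axis, 1 row a peak), with crosses for OLIG2 in OPCs and squares, circles and triangles for H3K4me3 in NSCs, OPCs and NFOs. A missing symbol means no listed peak, as for NSCs at Cspg4, Ptprz1 and Dscaml1 and for NFOs at Ptprz1 and Vcan, and fold enrichments of different libraries are not on 1 scale.

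Members with and without a long run of A or T were set apart by the NFO mark more than by the NSC mark. Among the 347 members with a run in the listed peak, 93.1% (89.9 to 95.5) had NSC H3K4me3 and 91.4% (87.9 to 94.1) had NFO H3K4me3, and among the 284 without one the shares were 91.9% (88.1 to 94.8) and 74.6% (69.2 to 79.6). A TSS lay within 1 kb of 64.0% and 72.5% of them. The 284 peaks without a run held an E-box in 32.7% (27.3 to 38.5) of cases and the others in 26.8% (22.2 to 31.8), and these intervals overlapped. In the gene lists, runs not given above stood in peaks of Zeb2 (16 bases), Nfib (17), Tcf7 (16) and Btg2 (18). They also stood in those of Mxi1 (16), Hnrnpc (29) and Hnrnpk (21), and in the Tcf4 peak with an OLIG2 fold enrichment of 8.07 (19).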

How the data were processed

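OLIG2, H3K4me3 and H3K27me3 peak lists of 8 of the 13 samples were used, 1 library per group. The 3 input libraries and the 2 RNA immunoprecipitation lists were not used here. OLIG2 peaks of NSCs, which the paper also reports, are not among the 13 samples, so the members were not compared with them. The authors mapped reads to mm10 (GRCm38) with Bowtie2, kept unique reads and removed blacklisted regions, with OLIG2 peaks from SPP and broad histone peaks from MACS2 (versions not given in the sources used here). The deposited lists give for each peak a fold enrichment over control, which is a ratio, and the −log10 of its FDR as the authors' callers wrote it. The lists also hold peaks below the authors' filter (FDR 0.05, fold enrichment 5 for OLIG2 and 3.5 for histone marks), and all listed peaks were used. Per the methods, the OLIG2 libraries were made with a kit that adds a T tail to DNA strands and copies them from a primer on that tail. How it acts at genomic runs of A or T was not tested. Depth is unknown.

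Overlap meant at least 1 bp. Summits were placed against GENCODE M21 plus lncRNAs annotated by NCBI, 43193 genes. Motifs were searched on both strands of the reference in listed peaks and in windows of 200 bp, and RefSeq promoters were cut to that length. The overlap and motif code was tested on simulated peaks. Genes were named if nearest to the 15 members with the highest OLIG2 fold enrichment, to the 8 highest in each class of H3K4me3 or with OPC H3K27me3, or if in a gene list, up to 6 a list. A gene that this rule names and the text does not give is not reported here. Members and lists were chosen with earlier results of these data known. The search for runs of at least 15 A or T, and the alternatives that leave out such peaks or histone peaks under 500 bp, were chosen after seeing the data. Tools were pysam 0.24.0, pandas 2.3.3, NumPy 2.4.6 and SciPy 1.17.1 under Python 3.11.15, and figures used Matplotlib 3.10.9.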

Additional observations from a re-analysis of the deposited data

How the results depend on the processing

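Of 63 values under alternatives for 9 results, 43 were counted as unmoved and 20 as moved. Shares and medians counted as moved outside the counting interval of the main value. The number of members has no interval and was judged by a set ratio to the main value. With the filter of the methods, H3K27me3 lay at 8.32% of the promoter-mark peaks in NSCs and 12% in OPCs. With fold enrichments above 10 for OLIG2 and 5 for histone marks, 282 peaks were left, with H3K27me3 at 3.55% in NSCs, 4.26% in OPCs and 1.06% in NFOs, a TSS within 1 kb of 75.5% and a median OLIG2 fold enrichment of 14.0. Counting marks within 1 kb, NFO H3K4me3 was found for 89.1%. A TSS lay within 1 kb of 54.7% with 1 TSS per gene and of 61.0% with protein-coding genes alone. Leaving out peaks with a run of at least 15 A or T, an alternative added after seeing the data, left 284 peaks, with NFO H3K4me3 at 74.6%, NSC H3K27me3 at 9.86%, a TSS within 1 kb of 72.5% and a median OLIG2 fold enrichment of 8.7. Leaving out histone peaks under 500 bp, also added, gave NSC H3K4me3 at 84.2%, NFO H3K4me3 at 39.8%, NSC H3K27me3 at 7.45% and OPC H3K27me3 at 9.83%. The cause of these shifts was not tested beyond what each alternative leaves out. Requiring 50% overlap, or no NFO OLIG2 peak within 500 bp, moved no share or median outside its interval. With 50% of the OLIG2 peak under OPC H3K4me3, 607 members were left, and with no NFO OLIG2 peak within 500 bp 617 were. No paired analysis was possible because each group has 1 library. The number of libraries and their unknown depth limit every comparison between cell types.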
